A study of Homo sapiens with 4 samples.

Results

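MMPs, ADAMs, ADAMTS enzymes and TIMPs are 4 families of secreted or membrane-bound proteins that cut, shed or protect the surroundings of a cell. Their members were taken from the deposited table by gene name, as protein-coding genes called MMP, ADAM or ADAMTS followed by a number, or TIMP1 to TIMP4. This gave 65 genes of the 63677 in the table, with 22 MMPs, 20 ADAMs, 19 ADAMTS genes and 4 TIMPs. A symbol that occurred more than once was represented by its row with the highest mean, and the 5 rows dropped in this way held no reads.

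RNA was sequenced from MDA-MB-231, an established human cell line of triple-negative breast cancer. Cells had been transfected with a control siRNA (siCt, libraries 1 and 2) or with pooled siRNAs that target the receptor tyrosine kinase AXL (siAxl, libraries 1 and 2). All 4 libraries come from this 1 line, and no source used here says whether the libraries of a group came from separate cultures. The p-values measure only the spread between libraries, which may be technical. The comparison asks which transcripts differ once AXL is depleted. The libraries held 39574387 to 44585773 reads. AXL itself had 29189 and 30617 normalized counts in siCt against 8658 and 7141 in siAxl, and both siAxl libraries lay far below both siCt libraries. Of the receptors with low expression in this subtype, ESR1 had at most 3.25 and PGR at most 1.94 normalized counts in any library. ERBB2 had 2949 to 3680, which are counts of RNA and not of receptor protein. The mesenchymal marker VIM had 86751 to 99296 normalized counts. Of the epithelial markers, CDH1 had 22.6 to 94.3 and EPCAM 565 to 771, so that EPCAM was expressed. Of 7 markers of leukocytes, endothelium and fibroblasts, PECAM1 was at 0 in each library, CD3E, CDH5 and DCN had at most 1.97 normalized counts, and PTPRC, CD68 and LUM had 7.77 to 55.3. Because these are bulk libraries, fewer cells of a type and less RNA per cell cannot be told apart.

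MMPs are zinc enzymes that cut collagens and other proteins of the extracellular matrix, and the membrane-type MMPs do so at the cell surface. ADAMs are membrane-anchored relatives, of which the catalytic members release the outer parts of growth factors, receptors and adhesion molecules, whereas others have lost the catalytic site. ADAMTS enzymes are secreted and process proteoglycans and procollagens. The TIMPs bind in the active site of MMPs and block it. In breast cancer the families are known for their part in invasion and in the release of ligands.

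Transcripts of MMPs, ADAMs and TIMPs were among those higher in siAxl than in siCt, while 1 ADAMTS gene rose and 1 fell. Of the 65 members, 39 had enough reads to be tested. Of these, 15 rose and 1 fell at a Benjamini-Hochberg adjusted p under 0.05 in limma's fit over all 16064 genes tested. In that fit 10.8% of all genes were called higher and 7.91% lower. By family, 5 of 12 tested MMPs, 7 of 12 ADAMs, 1 of 11 ADAMTS genes and 2 of 4 TIMPs rose, and the gene that fell was ADAMTS9. The rises ran from a log2 fold change of 0.24 in ADAM15 to 1.19 in ADAM12, and the median over the tested members was 0.34, against -0.0022 over all genes tested. Both siAxl libraries lay above both siCt libraries for 24 of the 39 and below for 3, where all genes tested gave 30.6% above and 30.5% below. MMP13 and ADAM23 passed the filter for low counts because of their siAxl libraries. Neither was called, but both are counted among the 24 and in the median, so that these are no support for a direction. Among the 24 members with a mean of at least 100 normalized counts, 12 rose and 1 fell, where 13.4% and 9.99% of all genes of that level were called. Without siAxl 1, 9 members rose and 0 fell, beside 5.53% and 2.57% of all genes. With every gene of at least 1 read tested, 8 rose and 0 fell, beside 2.79% and 1.25%. With library totals in place of size factors, 15 rose and 2 fell, ADAM28 being the second, while the share of all calls that were higher went from 57.7% to 46.8%.

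**Figure D1:**
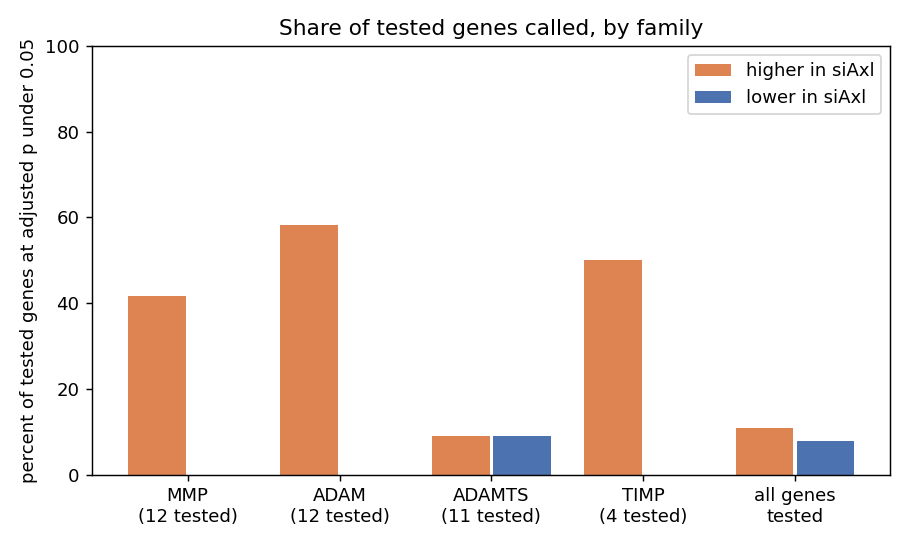
Percent of tested genes with a limma adjusted p under 0.05, higher (orange) or lower (blue) in siAxl, for each family and for all 16064 genes tested. The ADAM bar stands for 7 of 12 genes and the MMP bar for 5 of 12, while the ADAMTS bars, at 1 gene in each direction, are near those of all genes.

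The libraries of each member are shown next as distances from the siCt mean, so that the spread within a group can be read beside the distance between groups. A log2 fold change is siAxl over siCt on the scale of log2(normalized count + 1), which understates the change of genes with few counts. A value after ± on a log2 fold change is its standard error. Normalized counts are reads divided by a size factor of the library.

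**Figure D2:**
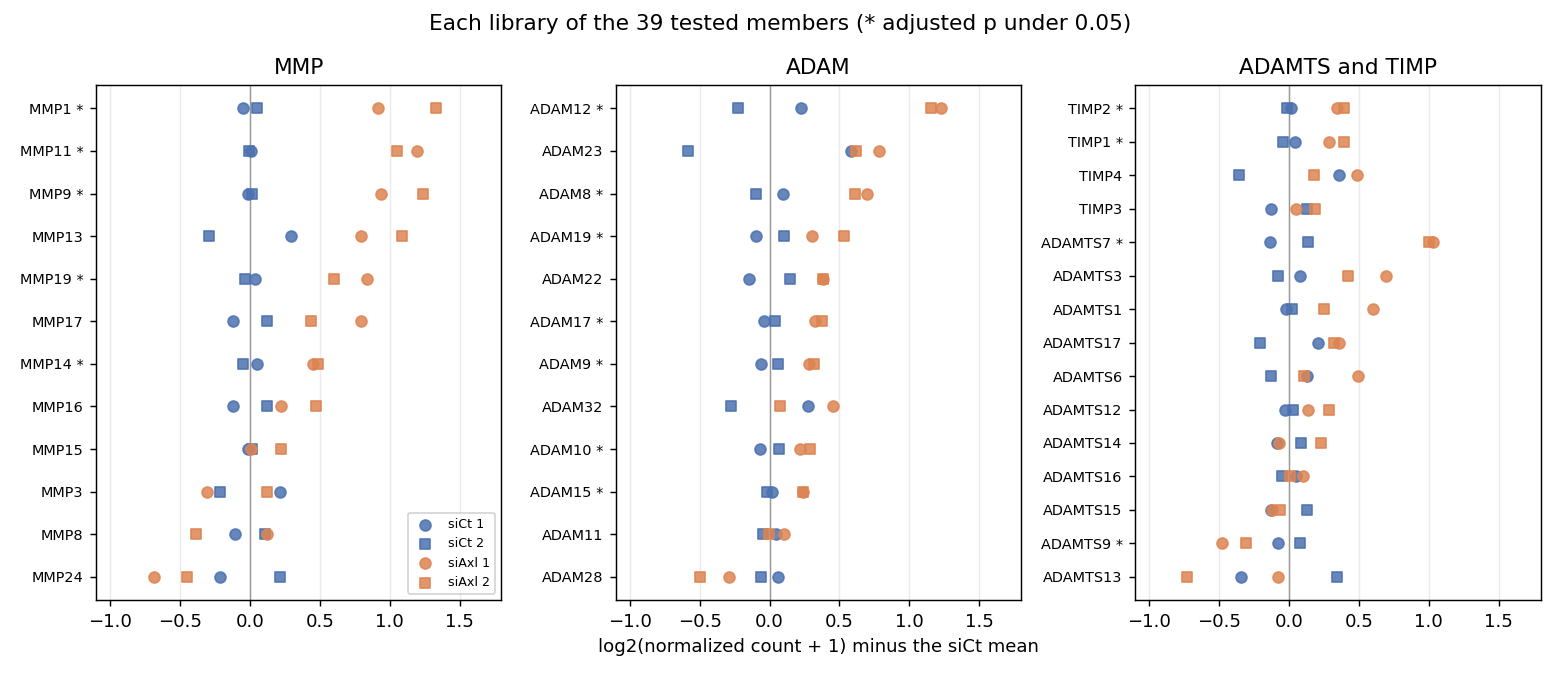
Each tested member in each library, as log2(normalized count + 1) minus the mean of the siCt libraries, with siCt in blue and siAxl in orange (circles, library 1 and squares, library 2). Asterisks mark the 16 members at an adjusted p under 0.05. MMP1, MMP11, ADAM12 and ADAMTS7 stand about 1 unit to the right in both siAxl libraries, and ADAMTS9 stands to the left.

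Among the MMPs, the collagenase MMP1 (ENSG00000196611), which opens the triple helix of fibrillar collagens, had 5790 and 6197 normalized counts in siCt and 11326 and 15096 in siAxl. Both siAxl libraries were higher, and they also lay further from each other than the siCt libraries did. Its mean rose 2.20-fold, from 5993 ± 288 to 13211 ± 2665 (SD, n = 2 per group), which is a log2 fold change of 1.13 ± 0.124 (limma adjusted p = 0.0030). The other collagenases were near the lower end of detection. MMP8 had 30 and 31 reads in siCt and 35 and 24 in siAxl, with overlapping groups (log2 fold change -0.13, adjusted p = 0.786). MMP13 had 9 and 5 reads in siCt and 13 and 16 in siAxl, and its log2 fold change of 0.94 was not called (adjusted p = 0.140).

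MMP11 (ENSG00000099953), a stromelysin by name that acts on few matrix proteins, had 156 and 155 normalized counts in siCt and 358 and 323 in siAxl. The groups were well apart, and the mean rose 2.19-fold (log2 fold change 1.12 ± 0.115, limma adjusted p = 0.00245). MMP11 shares 218 exon bases with CHCHD10, which is read from the other strand and had 445 reads per library where MMP11 had 251. The sources used here do not state whether reads were counted by strand, and CHCHD10 itself had a log2 fold change of -0.12 (adjusted p = 0.461). MMP3, the prototype stromelysin, had 22.3 to 32.6 normalized counts, with no order between the groups.

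MMP14 (ENSG00000157227), the membrane-type enzyme that cuts collagen at the cell surface and activates pro-MMP2, had 46697 and 43508 normalized counts in siCt and 61632 and 63145 in siAxl. The siCt and siAxl libraries were each close together, and the mean rose 1.38-fold (log2 fold change 0.47 ± 0.0644, limma adjusted p = 0.00528). None of the 4 other membrane-type MMPs tested was called by limma. MMP15 had 584 to 689 normalized counts (log2 fold change 0.11, adjusted p = 0.461), MMP16 256 to 386 (0.35, adjusted p = 0.113) and MMP17 55.6 to 106 (0.62, adjusted p = 0.0727). MMP24 had a log2 fold change below 0, with 98.8 and 133 in siCt against 70.9 and 83.5 in siAxl (-0.57, adjusted p = 0.0879). It shares 799 exon bases with MMP24OS of the other strand, at 8758 reads per library where MMP24 had 96, so that its own level is uncertain.

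Of the gelatinases, MMP2, which is the known target of MMP14, was almost not detected in this line, with 8, 12, 9 and 8 reads in siCt 1, siCt 2, siAxl 1 and siAxl 2. In siCt 1 this was 0.181 CPM, a read count scaled by the library total (95% Clopper-Pearson interval 0.0780 to 0.356), and MMP2 was under the filter. MMP9 (ENSG00000100985) had 11 and 10 reads in siCt and 22 and 27 in siAxl. Both siAxl values were higher, with 0.606 CPM in siAxl 2 (95% interval 0.399 to 0.882) against 0.248 (0.124 to 0.444) in siCt 1. Its log2 fold change of 1.09 ± 0.303 (limma adjusted p = 0.0477) was just past the threshold, was given no adjusted p by DESeq2, and lost its call with any of the 4 libraries left out. MMP19 (ENSG00000123342) had 198 and 187 normalized counts in siCt and 344 and 292 in siAxl, with the groups apart (log2 fold change 0.72 ± 0.124, adjusted p = 0.0110). It shares 814 exon bases with TMEM198B of the other strand, at 446 reads per library where MMP19 had 258, with a log2 fold change of 0.13 (adjusted p = 0.703). Without siAxl 1, MMP19 was no longer called, at a log2 fold change of 0.60.

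In the genome, 9 MMP genes follow each other on chromosome 11, in the order MMP7, MMP20, MMP27, MMP8, MMP10, MMP1, MMP3, MMP12 and MMP13. MMP1 stood alone among them in level. Its neighbours MMP10 and MMP3 had at most 10 and 34 reads in any library, and MMP20, MMP27 and MMP12 had 0 reads in each, where a count of 0 allows up to 3 reads, or 0.0673 to 0.0758 CPM. MMP7 had 2, 13, 3 and 4 reads. ADAM9 likewise has ADAM32, ADAM18 and ADAM2 as neighbours, and these had at most 58, 5 and 0 reads in any library.

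The catalytic ADAMs had the most calls of any class and also the most genes tested, and 7 of the 8 tested rose. Of all genes tested 10.8% were called higher, and of those with a mean of at least 100 normalized counts 13.4%. ADAM8 (ENSG00000151651), a sheddase best known from leukocytes, had 12737 and 11185 normalized counts in siCt and 19331 and 18259 in siAxl. The gap between the groups was several times the gap within them, and the mean rose 1.57-fold (log2 fold change 0.65 ± 0.0748, limma adjusted p = 0.00329). ADAM12 (ENSG00000148848), which cuts insulin-like growth factor binding proteins and also has a secreted form, was at a lower level, with 70.0 and 50.9 in siCt and 141 and 135 in siAxl. This was a log2 fold change of 1.19 ± 0.194 (adjusted p = 0.00907), which ran from 0.97 to 1.42 with 1 library left out. ADAM19 (ENSG00000135074), a sheddase of neuregulins, had 5557 and 6385 in siCt and 7339 and 8603 in siAxl, a log2 fold change of 0.42 ± 0.0956 (adjusted p = 0.0268). This call was lost without siAxl 2, at an adjusted p of 0.0855.

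ADAM10 and ADAM17 are the main sheddases of most cells. ADAM17 (ENSG00000151694), which releases TNF and several ligands of the EGF receptor, had 3630 and 3816 normalized counts in siCt and 4655 and 4827 in siAxl, a 1.27-fold rise (log2 fold change 0.35 ± 0.0574, limma adjusted p = 0.00947). ADAM10 (ENSG00000137845), which cuts Notch receptors and cadherins, had 8913 and 9747 in siCt and 10867 and 11393 in siAxl, a 1.19-fold rise (log2 fold change 0.26 ± 0.0640, adjusted p = 0.0344). Both were higher in each siAxl library than in each siCt library, by small amounts. ADAM17 shares 1323 exon bases with IAH1 of the other strand, at 1233 reads per library where ADAM17 had 4253, with a log2 fold change of 0.044 (adjusted p = 0.700). ADAM9 (ENSG00000168615) had 22277 and 24318 in siCt and 28352 and 29058 in siAxl (log2 fold change 0.30 ± 0.0638, adjusted p = 0.0208). ADAM15 (ENSG00000143537), which carries an integrin-binding motif, had 6846 and 6652 in siCt and 7986 and 7985 in siAxl (0.24 ± 0.0521, adjusted p = 0.0220). The rises of ADAM9, ADAM10 and ADAM15 are the smallest of those called, and each lost its call without siAxl 1 and without siAxl 2. ADAM9 and ADAM10 also lost theirs without siCt 1, and ADAM15 without siCt 2.

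ADAM28 was the catalytic ADAM tested that did not rise. It had 426 and 390 normalized counts in siCt and 333 and 288 in siAxl, so that both siAxl libraries lay below, and it missed the threshold (log2 fold change -0.39 ± 0.113, limma adjusted p = 0.0516). With library totals as the scaling it was just past it (adjusted p = 0.0482). With the shared replicate number as a block in the limma fit, ADAM28 was called lower (adjusted p = 0.000213). That blocked fit called 7310 of the 16064 genes tested. Of the non-catalytic ADAMs, which act in adhesion and as receptors, 4 were tested and 0 were called. All 4 had log2 fold changes above 0, with a median of 0.32 beside 0.33 for the catalytic ADAMs tested. ADAM23, which passed the filter because of its siAxl libraries, is counted in the 0.32. Most of the 4 had few counts, so that the calls do not show that the classes differ. ADAM22, a receptor of LGI proteins in neurons, had 197 and 213 reads in siCt and 280 and 278 in siAxl (0.38, adjusted p = 0.0847). In the blocked limma fit ADAM22 was called higher (adjusted p = 0.00246). ADAM23, ADAM32 and ADAM11 had 5.42 to 56.3 normalized counts, with adjusted p-values of 0.332, 0.539 and 0.899.

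Of the 11 ADAMTS genes tested, 1 rose and 1 fell. ADAMTS9 (ENSG00000163638), which cuts versican and aggrecan, was the gene that fell, from 2468 and 2762 normalized counts in siCt to 1876 and 2112 in siAxl. The groups did not overlap, and the mean in siAxl was 0.763 of that in siCt (log2 fold change -0.39 ± 0.0841, limma adjusted p = 0.0221). The call was lost without siAxl 1, at a log2 fold change of -0.31. The other proteoglycanases tested were ADAMTS15, with 3292 and 3941 in siCt and 3316 and 3451 in siAxl (-0.090, adjusted p = 0.525), and ADAMTS1, with 436 and 450 in siCt and 672 and 528 in siAxl (0.43, adjusted p = 0.0543). ADAMTS1 was past the threshold with DESeq2 (adjusted p = 0.0388) but not with edgeR (adjusted p = 0.0606). ADAMTS4, ADAMTS5, ADAMTS8 and ADAMTS20, of the same class, had at most 6 reads in any library.

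ADAMTS7 (ENSG00000136378), which cuts the cartilage oligomeric matrix protein, had 38.4 and 46.6 normalized counts in siCt and 87.4 and 85.5 in siAxl. This was a log2 fold change of 1.01 ± 0.191 (limma adjusted p = 0.0143), lost without siAxl 1 (adjusted p = 0.0580). Its close relative ADAMTS12, at a far higher level per length, had 3775 and 3911 in siCt and 4226 and 4689 in siAxl. Its log2 fold change was 0.21 (adjusted p = 0.0695), and edgeR called it with TMM scaling (adjusted p = 0.0472) but not with the deposited size factors (adjusted p = 0.0689). Among the procollagen N-proteinases, ADAMTS3 had 83.4 and 74.8 in siCt and 128 and 106 in siAxl (0.56, adjusted p = 0.0621), ADAMTS14 had 440 to 548 in the 4 libraries (0.079, adjusted p = 0.701), and ADAMTS2 had at most 1 read. ADAMTS6 had 391 to 603 normalized counts (0.30, adjusted p = 0.210), ADAMTS16 751 to 831 (0.051, adjusted p = 0.702), ADAMTS17 52.0 to 77.7 (0.34, adjusted p = 0.286) and ADAMTS13, the protease of von Willebrand factor, 10.8 to 23.8 (-0.40, adjusted p = 0.515).

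Of the inhibitors, TIMP2 (ENSG00000035862) had 26914 and 26339 normalized counts in siCt and 33846 and 34921 in siAxl, a 1.29-fold rise (log2 fold change 0.37 ± 0.0561, limma adjusted p = 0.00722). TIMP1 (ENSG00000102265) had 13406 and 12584 in siCt and 15829 and 17071 in siAxl, a 1.27-fold rise (0.34 ± 0.0638, adjusted p = 0.0143), which was no longer called without siAxl 2. TIMP3, which is bound to the matrix and also blocks ADAM17, had 20323 and 24216 in siCt and 22930 and 25213 in siAxl. Its groups overlapped (0.12 ± 0.0929, adjusted p = 0.430). TIMP4 had 28.2 to 51.5 normalized counts (0.33, adjusted p = 0.475). TIMP2 is the partner of MMP14 on the cell surface, and the ratio of MMP14 to TIMP2 normalized counts was 1.74 and 1.65 in siCt and 1.82 and 1.81 in siAxl. The ratio of MMP1 to TIMP1 was 0.432 and 0.492 in siCt and 0.716 and 0.884 in siAxl. For each pair both siAxl ratios lay above both siCt ratios. These ratios restate the changes already given for the same genes, and they have no test.

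Levels of different genes were compared as RPKM, reads scaled by exon length and library total. The length counts every base in any annotated exon of a gene, so that the order of genes depends on the annotation. ADAM10, for example, was given 16168 bases and ADAM15 6584. MMP14 was the highest member in each library, at 246 and 227 in siCt and 319 and 323 in siAxl. TIMP1 followed with 205 and 190 in siCt and 237 and 253 in siAxl, and then TIMP2, TIMP3 and MMP1, whose ranges over the 4 libraries overlapped. In siCt, MMP1 had 69.2 and 73.4, below both libraries of TIMP3 (104 and 123), and in siAxl 133 and 175, above both (115 and 125). ADAM9 (75.9 to 96.0) and ADAM8 (54.6 to 93.4) were the highest ADAMs, and ADAM15, ADAM19 and ADAM10 had 13.0 to 28.0. The highest ADAMTS genes were ADAMTS15 (13.5 to 16.2) and ADAMTS12 (9.09 to 11.0). Of the 5 called members with log2 fold changes above 1, MMP11, ADAM12, ADAMTS7 and MMP9 were at 0.106 to 1.60 RPKM, and MMP1 was at 69.2 to 175.

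**Figure D3:**
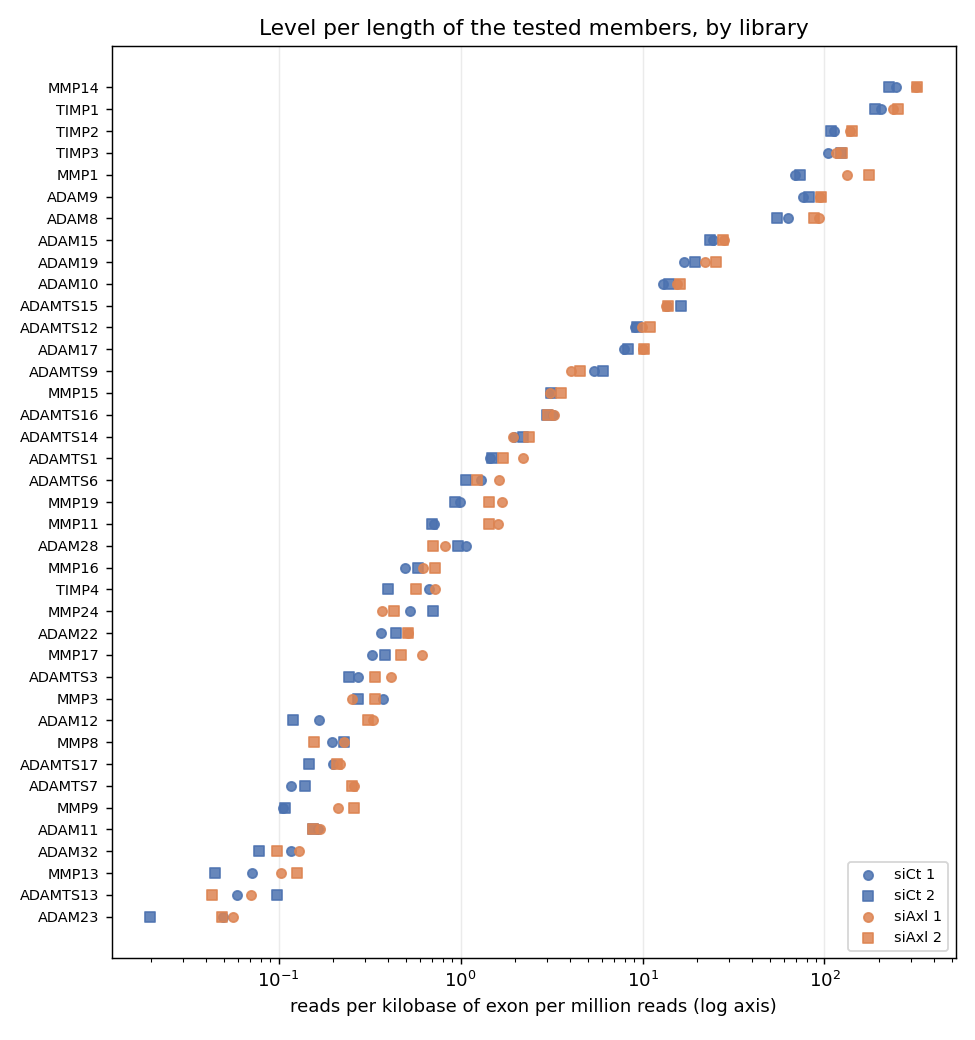
Level of each tested member in each library, in RPKM on a log axis, with siCt in blue and siAxl in orange. Members are ordered by their mean over the 4 libraries, from ADAM23 (0.0434) to MMP14 (279).

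The 26 members that were not tested had at most 13 reads in any library. Among them were MMP10, with 3, 3, 10 and 6 reads in siCt 1, siCt 2, siAxl 1 and siAxl 2, MMP25, with 3, 3, 6 and 11, and MMP21, with 6, 4, 10 and 4. These reads were too few for a test. MMP28, ADAM18, ADAM20, ADAM21, ADAM29 and ADAM30 had at most 5 reads in any library. The 10 members with 0 reads in each library were MMP12, MMP20, MMP26, MMP27, ADAM2, ADAM7, ADAM33, ADAMTS10, ADAMTS18 and ADAMTS19.

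Promoters were searched for motifs because 15 members rose. RefSeq sequences, from 250 bases before to 50 after the gene start in GRCh38.p14, were at hand for 38 of the 65 members, among them 10 of the 15 that rose. MMP1, MMP9, MMP19, ADAM9 and TIMP2 had none. The GC box GGGCGG, a binding motif of SP1, was searched on both strands and was in 9 of the 10 promoters of members that rose, in 11 of 13 of those tested and not called, and in 45.0% of all 35116 promoters. The AP-1 motif TGANTCA, known from the regulation of several MMPs, was in 0 of the 10 and in 7.71% of all promoters. Among the members, it was in those of MMP7, MMP10, MMP20 and ADAMTS12. The TATA box TATAAA was in 0 of the 10, in 8 of the 38 and in 11.5% of all promoters. Shown are the promoters of the 3 members with the smallest adjusted p among those that had one, 5′ to 3′ on the strand of the gene, with GC boxes of either strand in capitals.
MMP11, chr22:23772599-23772898, + strand: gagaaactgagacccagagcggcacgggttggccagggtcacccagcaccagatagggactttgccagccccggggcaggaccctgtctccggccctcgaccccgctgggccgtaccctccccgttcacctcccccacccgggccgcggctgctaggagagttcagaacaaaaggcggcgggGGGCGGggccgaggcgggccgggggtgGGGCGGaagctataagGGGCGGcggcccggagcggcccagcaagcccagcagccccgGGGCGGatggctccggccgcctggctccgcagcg
ADAM8, chr10:133276819-133277118, - strand: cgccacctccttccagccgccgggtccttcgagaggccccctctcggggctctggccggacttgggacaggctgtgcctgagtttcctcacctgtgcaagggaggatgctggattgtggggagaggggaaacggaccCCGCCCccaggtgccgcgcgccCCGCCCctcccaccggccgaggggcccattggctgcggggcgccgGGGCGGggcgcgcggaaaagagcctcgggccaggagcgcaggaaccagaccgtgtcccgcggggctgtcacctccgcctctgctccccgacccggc
MMP14, chr14:22836335-22836634, + strand: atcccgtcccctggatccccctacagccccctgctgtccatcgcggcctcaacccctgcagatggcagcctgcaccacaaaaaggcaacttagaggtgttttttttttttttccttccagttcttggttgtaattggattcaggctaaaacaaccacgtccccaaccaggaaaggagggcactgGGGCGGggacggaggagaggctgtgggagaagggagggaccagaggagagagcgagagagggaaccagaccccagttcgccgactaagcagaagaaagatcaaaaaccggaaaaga
MMP11 carried 4 GC boxes, ADAM8 3 and MMP14 1. A match describes the letters and does not show a site that is bound.

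Genes around the 4 families were taken from lists written by hand, and their counts stand beside 10.8% higher and 7.91% lower over all genes tested. Of the tetraspanins and iRhoms that carry and regulate ADAM10 and ADAM17, with the iRhom partner FRMD8, 8 were tested, and 2 rose and 0 fell. RHBDF2, the iRhom that brings ADAM17 to the cell surface, had 2736 and 2596 normalized counts in siCt and 3587 and 3463 in siAxl (log2 fold change 0.40 ± 0.0592, limma adjusted p = 0.00661). TSPAN17, a partner of ADAM10, had a log2 fold change of 0.32 (adjusted p = 0.0140), and its call was lost without siAxl 1 and without siAxl 2. The list's median was 0.12. Of 4 proprotein convertases tested, 1 rose. This was FURIN, which removes the prodomain of MMP14, MMP11 and many ADAMs, with 2748 in both siCt libraries and 4085 and 4296 in siAxl (0.61 ± 0.0568, adjusted p = 0.00210). Of 3 other inhibitors and inducers tested, 2 rose. RECK, a membrane-anchored inhibitor of MMPs, went from 334 and 306 to 654 and 615 (0.99 ± 0.0947, adjusted p = 0.00218), and BSG, an inducer of MMPs, from 23162 and 23479 to 27570.2 and 28734 (0.27 ± 0.0559, adjusted p = 0.0192). The call of BSG was lost without siCt 1, siAxl 1 or siAxl 2.

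Known substrates of ADAM10 and ADAM17 moved in both directions. Of 36 listed, 34 were tested, 11 rose and 7 fell, and the median log2 fold change was 0.10, beside 10.8% higher, 7.91% lower and a median of -0.0022 over all genes tested. APP had the smallest adjusted p among the rises, with 24875 and 24855 normalized counts in siCt and 36866 and 38369.9 in siAxl (log2 fold change 0.60 ± 0.0563, limma adjusted p = 0.00210). Next were SDC1 (0.46, adjusted p = 0.00509) and MET (0.49, adjusted p = 0.00611). AXL, which both enzymes can shed, is on this list as the target of the siRNAs, with a log2 fold change of -1.93 (adjusted p = 0.000585). Its fall was set by the design and is counted among the 7 and in the median. Next in adjusted p among the falls were the cadherin CDH1 (-1.64 ± 0.261, adjusted p = 0.00847), which had few counts, and the TNF receptor TNFRSF1B (-0.52 ± 0.123, adjusted p = 0.0295). The last was no longer called without siCt 2, siAxl 1 or siAxl 2.

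In earlier results of these data, the 7-base word CACATCA in a 3′ UTR went with higher values in siAxl. In the same libraries, 1507 of 12988 genes held it in their longest 3′ UTR. Their median log2 fold change was 0.10, and that of the others -0.010. Since the word comes from earlier results of these data, this is no separate support. Among the 15 members that rose, ADAM12, ADAM19 and TIMP1 hold the word and 12 do not, where 11.6% of all genes tested with a 3′ UTR hold it. Its part in the rises of these 3 was not tested.

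**Figure D4:**
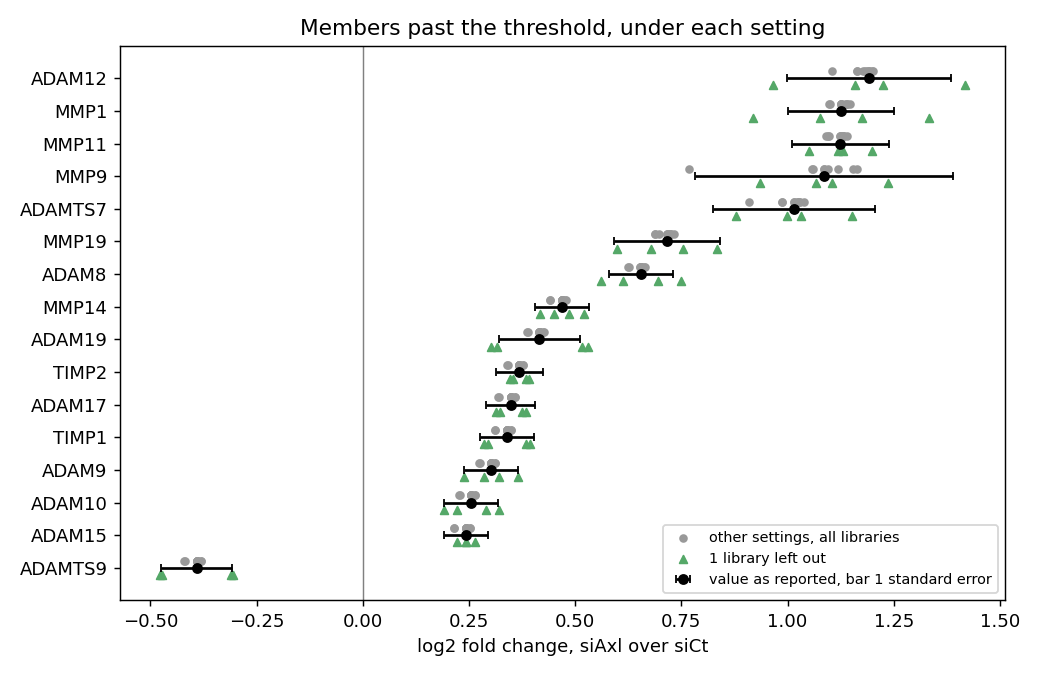
Log2 fold change of the 16 called members as reported (black, bar of 1 standard error), with each library left out in turn (green triangles) and under the other settings with all libraries (grey). Every value kept its side of 0, MMP9 had the widest range of these members, and MMP1 ran from 0.92 to 1.33 with 1 library left out.

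With each of the 4 libraries left out in turn and under the other scalings, filters, pseudocounts and tests, 14 settings in all, the 7 members ADAM8, ADAM12, ADAM17, MMP1, MMP11, MMP14 and TIMP2 kept their calls in each. With 2 libraries a group, no permutation of the labels could give a two-sided p under 0.333, and the adjusted p-values depend on variances that limma moderates over all genes.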

How the data were processed

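Libraries were grouped by their labels, with siCt and siAxl in 2 libraries each. The deposited table holds normalized counts, a signal that the authors made by dividing the reads of each gene by the size factor of its library. The submitters' processing notes name CASAVA 1.8, TopHat2 2.0.10, HTSeq 0.5.3, DESeq2 1.4.5 and GRCh37. The authors' own log2 fold changes, their standard errors, Wald scores and p-values were not used. Divided by the value of 1 read, all values (100%) came out whole within 0.01, and these reads were used. Their totals were 44281982 (siCt 1), 39574387 (siCt 2), 44585773 (siAxl 1) and 44559547 (siAxl 2). Intervals and limits of counts cover counting error only.

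Groups were compared with limma 3.58.1 (R 4.3.3, intensity trend) on log2(normalized count + 1), without covariates, over genes kept by edgeR's filterByExpr. edgeR 4.0.16 (quasi-likelihood) and DESeq2 1.42.0 on the recovered reads were alternatives, and made 3120 and 2598 calls against 3006. A call is a Benjamini-Hochberg adjusted p under 0.05. The fit was tested on simulated data. Exon lengths, overlaps and 3′ UTRs came from GENCODE 29, matched by identifier (64 of 65 members), whose build is not that of the authors. The members, classes and lists were chosen with earlier results of these data known. Values in each library were given for all called members, and for others by level. For each list, the 3 called genes with the smallest adjusted p in each direction were named. Genes that overlap members, and proteoglycans that were not called, were named after their values were seen.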

Additional observations from a re-analysis of the deposited data

How the results depend on the processing

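Of the results under 14 other settings and 1 stricter threshold, the count of called members (16) stayed within 1.5 times under TMM and library size scaling, library sizes without mitochondrial genes (added after the data were seen), pseudocounts of 0.5 and 8, edgeR and DESeq2, at 16 or 17. It was 8 with every gene of at least 1 read tested and 7 at an adjusted p under 0.01, where all genes called went from 3006 to 1097 and 859. Leaving out 1 library at a time, the members called ran from 9 to 19 and all genes called from 1301 to 3900, the lone library being assumed to vary like the other group. Without siAxl 2, 1518 genes and 11 members were called. Library size scaling moved the share of all calls that were higher from 57.7% to 46.8%, and 45.5% without mitochondrial genes, while 15 members stayed higher under both. The labels share replicate numbers across the groups but do not say what these numbers mark, and the main fit did not use them. Same-numbered libraries deviated together (Pearson r = 0.271 across all 16064 genes tested and 0.621 across the 12088 with a mean of at least 100 normalized counts), and mitochondrial reads were 3.70% and 3.78% in libraries 1 against 2.11% and 2.28% in libraries 2. With the replicate block 26 members (23 higher, 3 lower) and 7310 genes were called. Of these members, 10 were not called in the main fit, ADAM22 and ADAM28 among them.

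None of the 16 called members changed direction. Of those not called, some turned with 1 library left out, with ranges of -0.014 to 0.54 for ADAM32, -0.0021 to 0.10 for ADAM11, -0.22 to 0.039 for ADAMTS15, -0.070 to 0.23 for ADAMTS14, -0.38 to 0.13 for MMP8, -0.31 to 0.13 for MMP3, -0.010 to 0.24 for TIMP3 and -0.027 to 0.69 for TIMP4. Depth limits what can be said of members with few reads, such as MMP9, with 10 to 27 reads per library.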

Other observations

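Relatives outside the 4 families were measured as well. ADAMTSL1, of the ADAMTS-like proteins that lack the protease domain, had 1320 and 1365 normalized counts in siCt and 1938 and 2003 in siAxl (log2 fold change 0.55 ± 0.0625, limma adjusted p = 0.00322). It was the 1 gene called among the 5 tested of that list. BMP1, an astacin protease that trims procollagens, was the 1 member of its list with enough reads and had a log2 fold change of 0.25 (adjusted p = 0.0334), a call lost without siCt 2 and without siAxl 1. Of the proteoglycans that ADAMTS enzymes cut, VCAN was tested, with 53.7 and 46.6 in siCt and 61.2 and 88.4 in siAxl (0.55, adjusted p = 0.145), while ACAN, BCAN and NCAN had at most 3.84 normalized counts in any library. The antisense gene MMP25-AS1 had 109 and 84.5 in siCt and 183 and 139 in siAxl (0.72, adjusted p = 0.0446), a call lost without siCt 2 and without siAxl 1. It shares 1454 exon bases with MMP25, which had few reads.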
